A study of Mus musculus with 4 samples.

Results

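The genes described here encode the receptor for adrenomedullin and calcitonin gene-related peptide (CGRP) and its partners: Calcrl, Ramp1, Ramp2, Ramp3, Adm, Adm2 and Crcp. They were taken as the probe sets that the array annotation assigns to one of these genes alone. Each of the 7 had 1 such probe set, and they are 7 of 19938 genes with a probe set of their own. Calcrl was picked because its rise with olaparib was already known, so its change is given as a description with no test. The other members were picked for their place in the same receptor system, also with earlier results of these data known.

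Calcrl encodes the calcitonin receptor-like receptor, which reaches the cell surface only together with a receptor activity-modifying protein (RAMP). With RAMP1 it binds CGRP, and with RAMP2 or RAMP3 it binds adrenomedullin. The bound receptor couples mainly to Gs, raises cyclic AMP (cAMP) and activates protein kinase A (PKA). In adult brain the pair of Calcrl and Ramp2 is best known from blood vessels. Adrenomedullin is a secreted peptide that widens vessels and is induced by low oxygen.

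The study grew neurospheres from the lateral wall of the lateral ventricle, the subventricular zone, of C57BL/6 mice aged 9 to 12 weeks. All cells received non-targeting siRNAs and viral particles (pCLIG-Pax6) that express Pax6, a neurogenic transcription factor, and no group without Pax6 was analysed here. The DMSO group had 0.01% DMSO alone, and the olaparib group had 100 nM olaparib, an inhibitor of PARP1 and PARP2, in 0.01% DMSO. Cells spent 5 h with virus, 36 h in culture and 10 h on laminin without growth factors before RNA was taken, and the labels place drug or solvent in each of these steps. There were 2 arrays per group. The comparison asks which of these transcripts differ when PARP activity is blocked during early neuronal differentiation.

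Values are log2 signals of an Affymetrix mouse gene array, and array medians lay between 6.60 and 6.68. Precision is limited by having only 4 arrays. All 12 neural stem and progenitor cell markers on the array had means over the 4 arrays of at least 7.48. That is above 7.09, the highest of 27 genes of unrelated tissues, which serve as a reference for signal near background. Of 13 markers of young neurons, 5 lay above 7.09. Of the 10 young neuron markers tested, 3 were lower with olaparib by limma at an adjusted p under 0.05, where 3.37% of all 13956 genes tested were lower and 6.22% were called in either direction. These were Dcx, Map2 and Gad2, named after their values were seen. In bulk samples, fewer cells of a type and less RNA per cell cannot be told apart.

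Upstream sequences are shown for Calcrl and Adm, the members with the largest positive differences between the groups, so that their letters can be read beside the values. They come from RefSeq on GRCm38.p6. The Adm stretch is chr7:110627407-110627656 on the plus strand, the 250 bases before the start site. The Calcrl stretch is chr2:84425406-84425516 on the minus strand. It covers the 111 bases of that window that lie outside the annotated gene, since the annotated gene reaches into the other 139. Both run 5′ to 3′ towards the gene, and capitals mark a match to a searched motif.
Calcrl: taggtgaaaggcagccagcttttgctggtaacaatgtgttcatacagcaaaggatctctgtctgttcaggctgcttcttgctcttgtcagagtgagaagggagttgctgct
Adm: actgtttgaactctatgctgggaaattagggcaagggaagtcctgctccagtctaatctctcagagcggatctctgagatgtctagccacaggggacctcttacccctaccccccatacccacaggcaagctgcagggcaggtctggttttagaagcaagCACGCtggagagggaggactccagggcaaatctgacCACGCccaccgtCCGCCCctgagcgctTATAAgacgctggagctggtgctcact

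The motifs searched were TGACGTCA and TGACG (cAMP response element and its half-site), ACGTG and GCGTG (hypoxia response cores), TGANTCA (AP-1 site) and GGGCGG (GC box) on both strands. TATAA (TATA box core) was searched on the strand of the gene, and the full element TGACGTCA also holds the half-site. The Adm window held GCGTG on the opposite strand at 90 and 54 bases before the start, a GC box at 42 and TATAA at 27. At least 1 GCGTG was present in 28.2% of 32841 windows of the same length, a GC box in 32.7% and TATAA in 16.0%. The whole Calcrl window held 1 GC box, at 83 bases before the start and inside the annotated gene, so the printed stretch has no capitals. Neither window held TGACG, found in 17.8% of windows, or TGANTCA, found in 6.75%. The Ramp3 window held 2 GCGTG cores and 3 GC boxes, and those of Ramp1 and Adm2 held none of the 7 motifs. Ramp2 and Crcp were not matched.

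Calcrl, the receptor itself, had log2 signals of 7.40 and 7.63 on the DMSO arrays and 8.39 and 8.33 on the olaparib arrays. Both olaparib arrays were above both DMSO arrays, and the DMSO pair was spread more widely (SD 0.17) than the olaparib pair (SD 0.04). The mean went from 7.51 ± 0.17 to 8.36 ± 0.04 (SD, n = 2 each). That is a difference of 0.85 on the log2 scale (SE 0.10), or 1.80-fold, the 9th largest rise among 13956 genes tested. Left-out arrays moved it between 0.73 and 0.97. Its signal lay above 7.09, the highest mean of the unrelated genes, on all 4 arrays.

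The 3 RAMP genes encode single-pass partners that decide which peptide the receptor binds. Ramp1, the partner for CGRP, had signals of 8.92 and 8.95 with DMSO and of 9.19 and 9.15 with olaparib. The groups did not overlap and each pair was tight, but the difference of 0.24 (SE 0.11) did not pass in limma (adjusted p = 0.219, 95% interval before adjustment 0.02 to 0.46). Ramp2, the partner for adrenomedullin, had signals of 6.84 and 6.69 with DMSO and of 6.95 and 6.80 with olaparib. These overlap, and the difference of 0.11 (SE 0.08) did not pass in limma (adjusted p = 0.570, 95% interval -0.07 to 0.28). Ramp3 had signals of 6.35 and 6.25 with DMSO and of 6.43 and 6.25 with olaparib. Its mean was under the filter on dim genes at 6.42, so it was not tested. The means of Ramp2 and Ramp3 lay within the range of the unrelated genes, whose median was 6.44 and upper quartile 6.64. Ramp3, at 6.32, was below that median, and Ramp2, at 6.82, was above that quartile but under the highest unrelated gene.

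**Figure D1:**
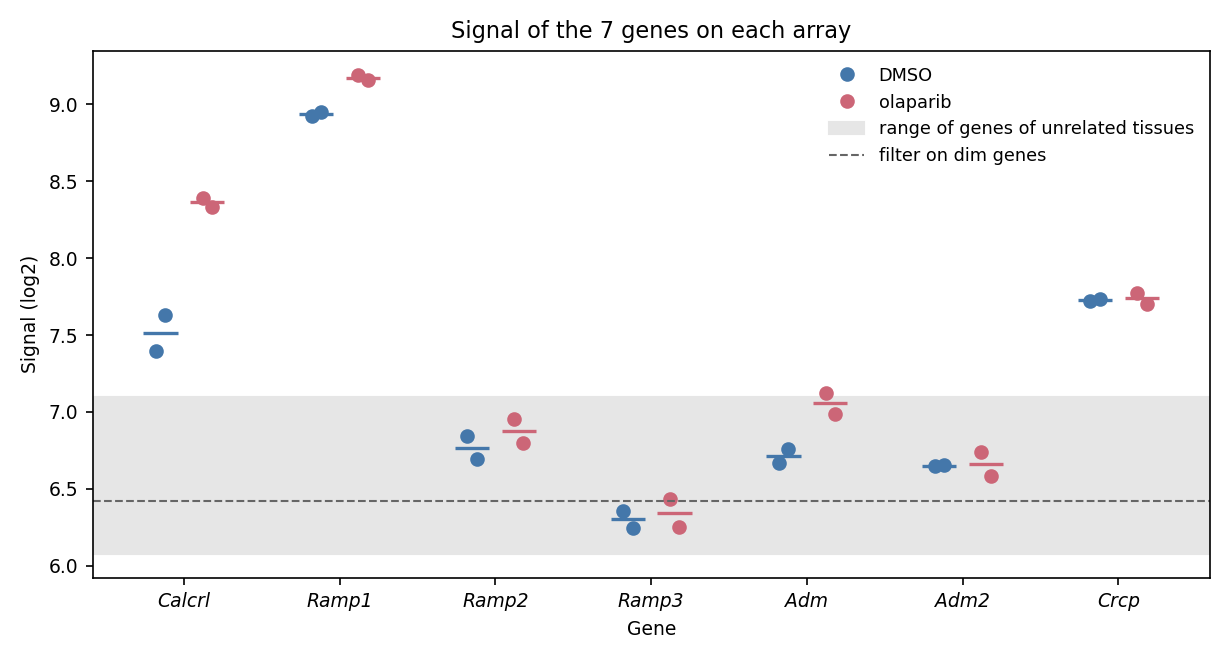
Log2 signal of each of the 7 genes (x axis) on the 2 DMSO and 2 olaparib arrays, with short bars at group means, a grey band for the range of 27 genes of unrelated tissues and a dashed line at the filter of 6.42. Calcrl, Ramp1 and Adm have both olaparib points above both DMSO points, and the groups overlap for Ramp2, Ramp3, Adm2 and Crcp; levels of different genes are not comparable, since probes differ in brightness.

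Adm, which encodes adrenomedullin, rose with olaparib. Its signals were 6.67 and 6.76 with DMSO and 7.13 and 6.99 with olaparib, so the groups did not overlap. The mean went from 6.72 ± 0.06 to 7.06 ± 0.10 (SD, n = 2 each), a change of 0.34 on the log2 scale (SE 0.08), or 1.27-fold, higher in 2 of 2 olaparib arrays (limma, adjusted p = 0.0125). The call was lost without DMSO replicate 1, where the change was 0.30 (adjusted p = 0.231), and when every probe set entered the limma fit (adjusted p = 0.169). Over its 13 alternatives the adjusted p ran from 0.000530 to 0.231. Both group means lay under 7.09, within the range of the unrelated genes, so the size of the change is uncertain.

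Adm2 encodes intermedin, a related peptide that binds the same receptors. Its signals were 6.65 and 6.65 with DMSO and 6.74 and 6.58 with olaparib. The olaparib arrays lay on either side of the DMSO pair, and the difference was 0.01 (SE 0.08; limma, adjusted p = 0.979, 95% interval -0.16 to 0.18). Crcp encodes a protein that helps the receptor couple to its signal and is also a subunit of RNA polymerase III. It had signals of 7.72 and 7.74 with DMSO and of 7.77 and 7.70 with olaparib, with a difference of 0.01 (SE 0.09; limma, adjusted p = 0.984, 95% interval -0.17 to 0.19). The 4 values of Crcp lay within a narrow span, and the interval leaves out changes of the size seen for Calcrl. So do the intervals of Ramp1, Ramp2, Adm and Adm2, and Calcrl was picked for its rise, so this does not set Crcp apart.

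Of the 5 members tested other than Calcrl, 1 was higher in limma and 0 were lower, where 6.22% of all genes tested were called, 2.84% higher and 3.37% lower. At an unadjusted p under 0.05 there were 2 of the 5, Adm and Ramp1, against 19.1% of all genes tested. With so few members the share cannot be set apart from the background. Both olaparib arrays lay above both DMSO arrays in 2 of these 5 (Ramp1 and Adm) and below them in none. Of all genes tested, 23.2% had both olaparib arrays above and 23.9% had both below. The median difference of the 6 members other than Calcrl, with the untested Ramp3 among them, was 0.07, against 0.0013 over all genes tested.

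**Figure D2:**
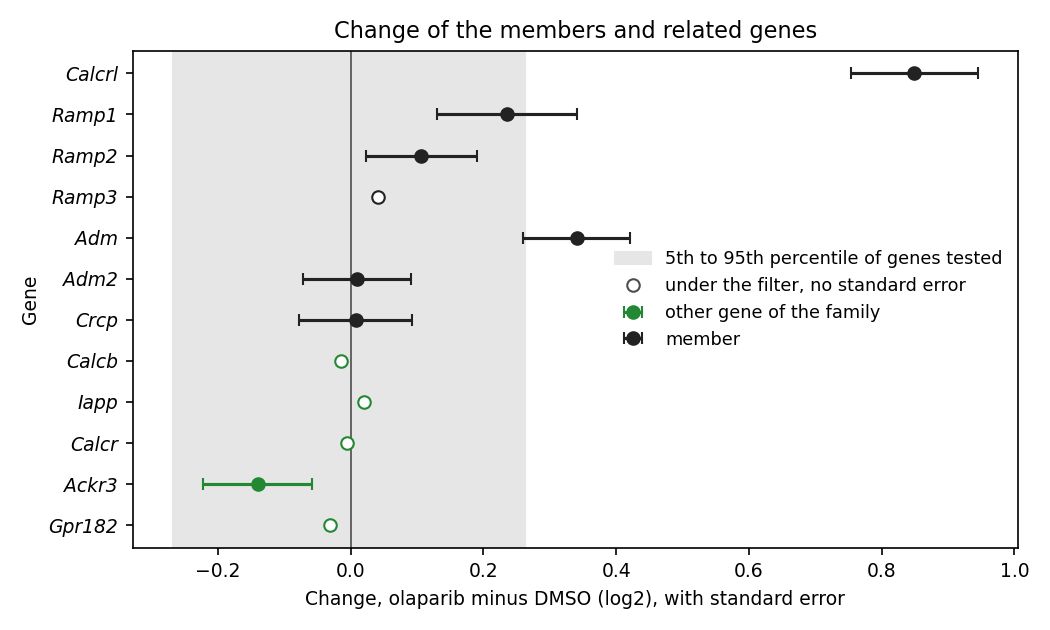
Difference in log2 signal, olaparib minus DMSO (x axis), for the 7 members and 5 related genes (y axis), with standard errors from limma where the gene was tested and open points where it was under the filter. Calcrl at 0.85 and Adm at 0.34 lie outside the grey band from -0.27 to 0.26, which spans the 5th to 95th percentile of all genes tested; the other members and related genes lie inside it.

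The remaining genes of the peptide family gave signals near background. Calcb, a CGRP gene, had group means of 6.42 with DMSO and 6.41 with olaparib. Iapp, the amylin gene, had 6.28 and 6.30, and Calcr, the calcitonin receptor gene, had 6.26 and 6.25. None of the 3 passed the filter, and Calca was not analysed here. Ackr3, a decoy receptor for adrenomedullin and chemokines, had signals of 7.31 and 7.34 with DMSO and of 7.10 and 7.27 with olaparib. Its olaparib arrays were the lower pair, but the difference of -0.14 (SE 0.08) did not pass in limma (adjusted p = 0.395, 95% interval -0.31 to 0.03). Gpr182, once proposed as an adrenomedullin receptor, was under the filter at means of 6.32 and 6.29.

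Because Calcrl and Ramp2 are known from vessels, endothelial markers were examined beside them. Of 15 listed, 14 were on the array, 4 passed the filter and 0 were called in limma, also with 0 at an unadjusted p under 0.05. None of the 14 had a mean above 7.09. Pecam1 had group means of 6.37 with DMSO and 6.36 with olaparib, Cdh5 of 6.34 and 6.40, and Cldn5 of 6.46 and 6.38. The summed linear signal of the 14 markers was 1197 to 1216 with DMSO and 1165 to 1249 with olaparib, so the groups overlapped. The median log2 signal of the 14 was 6.39, against 6.44 for the unrelated genes, so the sum was largely signal near background. A change in a small endothelial signal could be missed by it. The sum over 13 mural cell and fibroblast markers was 1378 to 1382 with DMSO and 1327 to 1370 with olaparib, and that over 12 microglia and macrophage markers was 1030 to 1044 and 998 to 1070. The median log2 signals of these lists were 6.44 and 6.34, also near that of the unrelated genes. In limma 0 of the 7 mural and 0 of the 5 microglial markers tested were called, with 1 of each at an unadjusted p under 0.05. Of all genes tested, 6.22% were called in limma and 19.1% were at an unadjusted p under 0.05. With 4 endothelial, 7 mural and 5 microglial markers tested, 0 calls cannot be set apart from that share.

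For the other marker lists, values are given beside Calcrl and Adm with no test of a list. Sums of linear signal weigh the brightest genes most, so a sum can rest on few markers. The brightest mean log2 signal was 10.32 among young neuron markers, 8.53 among oligodendrocyte lineage and 9.61 among lymphatic endothelial markers. The medians of these lists were 6.92, 6.93 and 7.59. The summed signal of 13 young neuron markers was 3842 to 3985 with DMSO and 2700 to 3051 with olaparib. Of the 10 tested, 7 were at an unadjusted p under 0.05 in limma, against 19.1% of all genes tested. The sum over 7 oligodendrocyte lineage markers was 1061 to 1085 with DMSO and 1151 to 1172 with olaparib. In limma 1 of 7 was higher, Cspg4, named after its value was seen, where 2.84% of all genes tested were higher. At an unadjusted p under 0.05 there were 3 of the 7, against 19.1% of all genes tested. The median change of the 7 was 0.11, but the list's median log2 signal was lower with olaparib (6.88 and 6.77) than with DMSO (7.05 and 7.03). Of 8 ependymal markers, 5 were tested and 0 called in limma, where 6.22% of all genes tested were called. At an unadjusted p under 0.05 there was 1 of the 5, against 19.1% of all genes tested. The sum over the 8 was 869 to 870 with DMSO and 824 to 845 with olaparib. Of 12 neural stem and progenitor markers 0 were called in limma, also against 6.22%, with 4 at an unadjusted p under 0.05, against 19.1% of all genes tested. The sum over the 12 was 19794 to 20671 with DMSO and 18562 to 20373 with olaparib. Of 4 lymphatic endothelial markers, 3 were tested and 1 was lower in limma, where 3.37% of all genes tested were lower. The lower marker was Prox1, which neural progenitors also express and which was named after its value was seen. The list's sum was 1474 to 1574 with DMSO and 1175 to 1286 with olaparib. The part of these values in the changes of Calcrl and Adm was not tested.

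**Figure D3:**
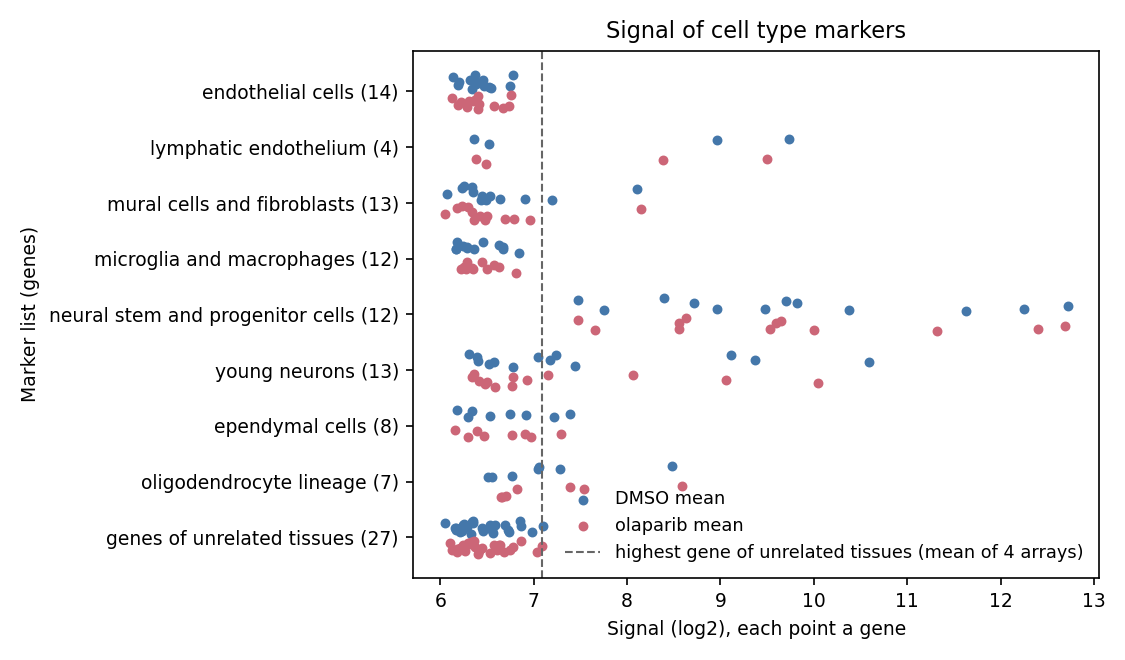
Mean log2 signal in the DMSO and olaparib groups (x axis, each point a gene) for 8 lists of cell type markers and for genes of unrelated tissues (y axis, genes on the array in parentheses), with a dashed line at 7.09, the highest unrelated gene. All 14 endothelial markers lie left of the line and all 12 neural stem and progenitor markers lie right of it.

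Around the receptor, 9 lists were examined, with 120 distinct genes tested. The list of other calcitonin family genes had 0 tested. Of the 120, 5 were higher and 5 lower in limma, or 8.33%, against 6.22% of all genes tested. The median change of the 120 was -0.0007, against 0.0013 over all genes tested. The counts of higher and lower genes fell when 1 DMSO array was left out and rose when 1 olaparib array was left out. Counts over all genes tested moved the same way. With all probe sets in the fit, 0 of the 120 genes were called by limma, where 0.086% of all genes tested were called.

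Other receptors known to pair with RAMPs had a median change of -0.0043 over 10 genes tested, of which 1 was lower and 0 higher. That is 10% of the list, against 6.22% of all genes tested. At an unadjusted p under 0.05 in limma there were 2, against 19.1% of all genes tested. The gene that fell was Adcyap1r1, which encodes the PAC1 receptor for the neuropeptide PACAP, another Gs-coupled receptor. Its signals were 9.37 and 9.33 with DMSO and 8.61 and 8.87 with olaparib. Both olaparib arrays were below both DMSO arrays, and the change was -0.61 (SE 0.11; limma, adjusted p = 0.00197). The call was lost without DMSO replicate 1 (adjusted p = 0.0580; range over its 13 alternatives 2.92e-07 to 0.103).

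Genes of Gs, cAMP and PKA signalling had a median change of -0.0024 over 34 tested, of which 2 rose, 2 fell and 30 did not reach the threshold. The calls were 11.8% of the list, against 6.22% of all genes tested. At an unadjusted p under 0.05 in limma there were 8, against 19.1% of all genes tested. Adcy8, a calcium-stimulated adenylyl cyclase, had signals of 7.68 and 7.82 with DMSO and of 7.16 and 7.09 with olaparib. It fell by 0.63 (SE 0.08; limma, adjusted p = 8.15e-05). Akap5, which anchors PKA at synapses, had 8.24 and 8.16 with DMSO and 7.52 and 7.66 with olaparib, and fell by 0.61 (SE 0.09; limma, adjusted p = 0.000289). Both kept their calls when any 1 array was left out. Akap12, another PKA anchor, had a mean of 7.49 ± 0.03 with DMSO and 7.92 ± 0.11 with olaparib (SD over 2 arrays each), and rose by 0.43 (SE 0.09; limma, adjusted p = 0.00502). Pde3a, a phosphodiesterase that degrades cAMP, had a mean of 7.01 ± 0.01 with DMSO and 7.40 ± 0.09 with olaparib, and rose by 0.39 (SE 0.08; limma, adjusted p = 0.00499). The 4 genes thus split by direction, with a cyclase and an anchor lower and an anchor and a phosphodiesterase higher. The call on Akap12 was lost without DMSO replicate 2 (adjusted p = 0.0880) and that on Pde3a without DMSO replicate 1 (adjusted p = 0.0539). Gnas, the Gs alpha subunit gene, was not analysed here. The count of calls in this list rose without olaparib replicate 1, as did the share called over all genes.

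Of 7 genes for processing and clearance of the peptides 0 were called in limma, also with 0 at an unadjusted p under 0.05. They include Pam, the enzyme that amidates adrenomedullin and CGRP, with a difference of -0.01 (SE 0.11; adjusted p = 0.985). Of 14 genes for desensitisation and trafficking of the receptor 0 were called in limma, with 2 at an unadjusted p under 0.05. Of 16 other subunits of RNA polymerase III, the complex that also holds the product of Crcp, 0 were called in limma, with 2 at an unadjusted p under 0.05. The medians of these 3 lists were -0.01, -0.03 and -0.01. Of all genes tested, 6.22% were called in limma and 19.1% were at an unadjusted p under 0.05. In lists of 7, 14 and 16 genes, 0 calls cannot be set apart from that share.

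Genes commonly induced by cAMP had a median change of 0.10 over 21 tested, of which 2 rose, 1 fell and 18 did not reach the threshold. The 3 calls compare with 6.22% of all genes tested, and the 7 genes of this list at an unadjusted p under 0.05 with 19.1%. The median lay between 0.08 and 0.13 when 1 array was left out. Atf3, a stress-induced transcription factor, rose by 0.51 (SE 0.08; limma, adjusted p = 0.000387), from 7.04 and 7.06 with DMSO to 7.56 and 7.54 with olaparib. Fos, an immediate early gene, rose by 0.34 (SE 0.08; limma, adjusted p = 0.0116), from 6.99 and 7.01 to 7.28 and 7.42. Rgs2, which dampens G protein signals, fell by 0.41 (SE 0.11; limma, adjusted p = 0.0256), from 9.13 and 9.25 to 8.73 and 8.83. Without DMSO replicate 1 or without DMSO replicate 2, neither Fos (adjusted p = 0.118 and 0.0859) nor Rgs2 (adjusted p = 0.226 and 0.468) passed, and Rgs2 was also lost under median centring (adjusted p = 0.133). Among genes above the 50th percentile of signal the list held 7 calls, where 10.1% of all genes were called. The count of calls fell when 1 DMSO array was left out and rose without olaparib replicate 1. The share called over all genes moved the same way. The DMSO means of Atf3, Fos and, above, Pde3a lay under 7.09, within the range of the unrelated genes, so the sizes of these rises are uncertain. Atf3 and Fos are known to respond to stress and growth factors as well as to cAMP.

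Adm is a known target of hypoxia-inducible factors but was not counted in the list of their targets described here. The list had a median change of 0.01 over 20 tested, of which 1 rose, 1 fell and 18 did not reach the threshold. The calls were 10% of the list, against 6.22% of all genes tested. At an unadjusted p under 0.05 in limma there were 3, against 19.1% of all genes tested. Vegfa, the vascular growth factor gene, rose by 0.39 (SE 0.09; limma, adjusted p = 0.0124), from 7.70 and 7.49 with DMSO to 8.02 and 7.96 with olaparib. Slc2a1, a glucose transporter gene, fell by 0.39 (SE 0.11; limma, adjusted p = 0.0411), from 9.51 and 9.36 to 8.98 and 9.11. The call on Vegfa was lost without DMSO replicate 2 (adjusted p = 0.396). That on Slc2a1 was lost without DMSO replicate 1 or DMSO replicate 2 (adjusted p = 0.705 and 0.258), without a filter (adjusted p = 0.0635) or under median centring (adjusted p = 0.191). Without olaparib replicate 1 the median of the list was -0.02.

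**Figure D4:**
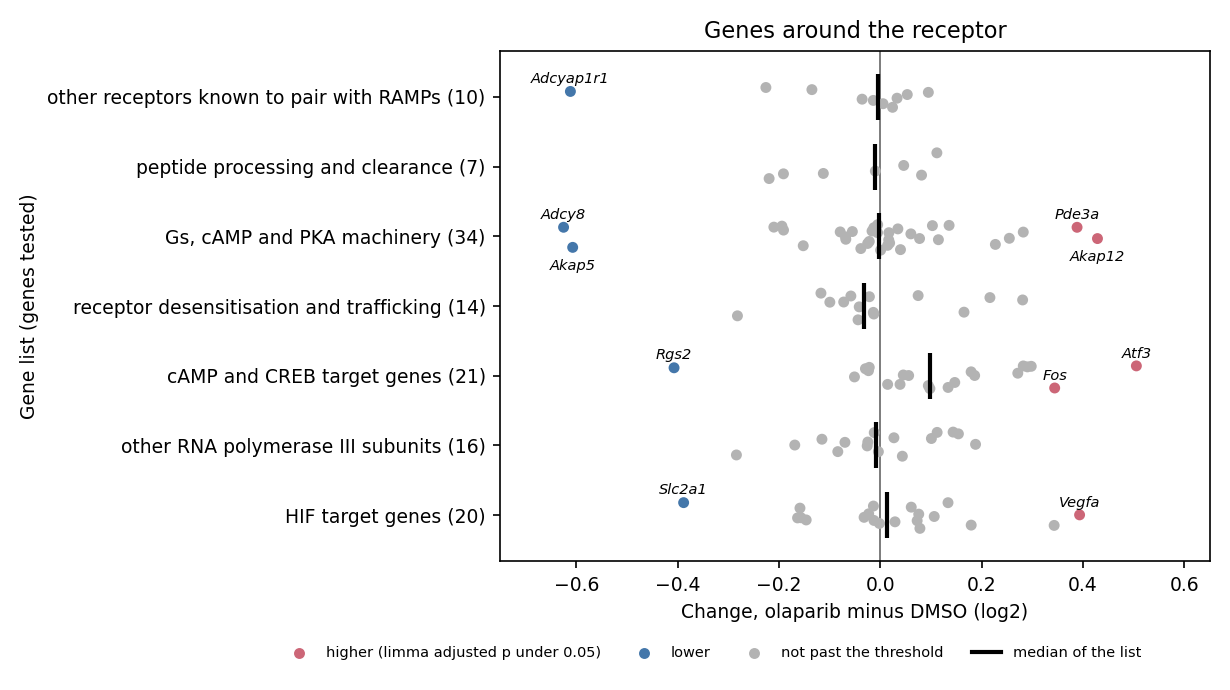
Change in log2 signal, olaparib minus DMSO (x axis), of each tested gene in 7 lists around the receptor (y axis, genes tested in parentheses), with black bars at list medians and coloured points for genes past an adjusted p of 0.05 in limma. The medians lie close to 0 apart from 0.10 for cAMP and CREB targets, and the 10 named genes are 5 higher and 5 lower; vertical scatter within a list carries no meaning.

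The genes whose values followed Calcrl most closely were found by the distance between log2 values centred on each gene's own mean, over 4 arrays. Only genes tested were compared, and predicted genes and olfactory and vomeronasal receptors were left out. The 5 closest were Cbr3, a carbonyl reductase, at a distance of 0.13, Ociad2 at 0.15 and Idi1, an enzyme of cholesterol synthesis, at 0.16. Dcxr, another carbonyl reductase, followed at 0.19 and Rtn4rl1, a Nogo receptor relative, at 0.22. Cbr3 had signals of 8.05 and 8.19 with DMSO and of 8.97 and 9.06 with olaparib. Like Calcrl, Cbr3, Ociad2 and Idi1 were lower on DMSO replicate 1 than on DMSO replicate 2, by 0.14, 0.24 and 0.17, against 0.23 for Calcrl. Unlike Calcrl, all 5 were slightly higher on olaparib replicate 2 than on olaparib replicate 1. These genes were chosen by the same arrays and their differences carry no test here.

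**Figure D5:**
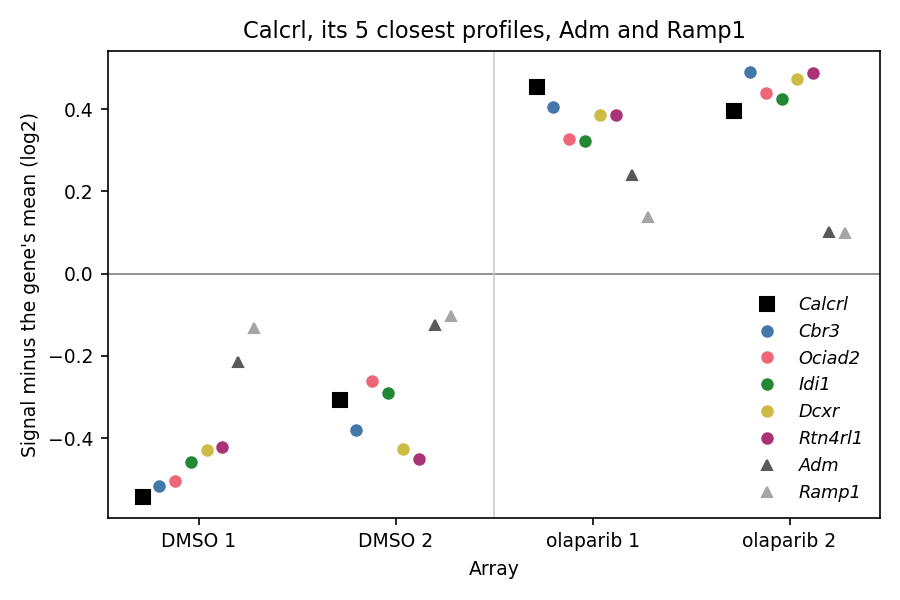
Log2 signal minus the gene's mean over the 4 arrays (y axis) on each array (x axis) for Calcrl, its 5 closest genes, Adm and Ramp1. Calcrl and the 5 closest genes lie at or below -0.26 on both DMSO arrays and at or above 0.32 on both olaparib arrays, and Adm and Ramp1 show smaller differences in the same direction.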

How the data were processed

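RNA was amplified from 40 ng per sample, labelled with biotin and hybridised to 1-colour Affymetrix arrays, per the labels' protocols. The values are the authors' deposited log2 signals for each probe set and array; background correction, normalization and summarisation are not given in the sources used here. The platform annotation gave 21640 of 34760 probe sets a single gene, 1321 several and 11799 none listed, and only the first were used. Of 19938 genes, 19855 matched a current RefSeq entry of GRCm38.p6. A gene was represented by its brightest probe set over 4 arrays, and genes with a mean above the 30th percentile (6.42) were tested. Changes are olaparib minus DMSO in a two-sided limma fit (limma 3.58.1, R 4.3.3; eBayes with a trend) over 13956 genes, adjusted by Benjamini-Hochberg, with calls under 0.05. All adjusted p-values printed come from limma. The fit has 2 residual degrees of freedom, against 18.1 prior degrees of freedom from the trend over all genes tested. SEs and p-values thus rest mainly on a spread pooled over genes of like signal, and less on the gene's own arrays. The labels call the arrays biological replicates without naming animals, so that spread is one between these samples and not between known animals. The members and lists were chosen with earlier results of these data known. Named genes were the members and 8 related genes whatever their values, up to 4 called genes per list by smallest p, the 5 closest profiles to Calcrl, and Pecam1, Cdh5 and Cldn5; Dcx, Map2, Gad2, Cspg4 and Prox1 were added after their values were seen. Lists were described by counts and medians, with no set test. The 13 alternatives concern the filter, normalization, a floor, the spread estimate, the probe sets and each left-out array. Windows were searched with Python 3.11.15, and figures drawn with matplotlib 3.10.9.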

Additional observations from a re-analysis of the deposited data

How the results depend on the processing

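The change of Calcrl stayed between 0.73 and 0.97 over its 13 alternatives, with the extremes from left-out DMSO arrays. The rise of Adm kept its direction in 13 of 13 alternatives and passed in 11. With all probe sets in the fit its change was still 0.34, but its adjusted p was 0.169. Left-out arrays moved it between 0.27 and 0.41 and the count of higher members other than Calcrl between 0 and 1; with all probe sets that count was 0. Ramp1, Ramp2, Adm2 and Crcp passed in none of their alternatives, of which Adm2, too dim for the stricter filter, had 12 and the others 13.

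Over all genes, 397 were higher and 471 lower. Without a filter 257 were higher, with quantile normalization 779 were lower, and with all probe sets in the fit 1 was higher and 11 were lower. With 1 array left out there were 97 to 1274 higher and 161 to 1032 lower. Of the genes in the 9 lists, 5 were higher and 5 lower. There were 9 higher with a filter at the 50th percentile, where 10.1% of all genes were called. There were 8 lower with quantile normalization, where 9.39% of all genes were called, and 3 lower with median centring. With all probe sets in the fit there were 0 higher and 0 lower. With 1 array left out there were 3 to 14 higher and 2 to 9 lower. With 1 array left out, the lone array of its group is assumed to vary like the other group. No paired analysis was possible because the labels give no replicate numbers that link the groups. Mean signals of Ramp2, Ramp3, Adm and Adm2 within the range of the unrelated genes limit what can be read from them.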

Other observations

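A further probe set was annotated to Malat1, a long non-coding RNA, and Ramp2 together and was not used for Ramp2. Its log2 signals were 12.90 and 13.16 with DMSO and 13.06 and 13.26 with olaparib, so the groups overlapped.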
